A study of Mus musculus with 56 samples.

Results

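The genes Fkbp5 and Map3k6 were followed in mouse lung after injury by oleic acid (OA), a fatty acid that damages the lung when it reaches it through the blood. Both were selected on measured values, because their level in OA mice was highest at 3 and 4 hours without subtraction of the controls. Each was read by 1 cDNA clone, so the pair made up 2 of the 5883 gene symbols and 2 of the 7625 named clones of the MUSV29K nylon microarray. The height of the pulse itself is therefore given as a description, without a test. The difference between OA and serum mice is a description too. For the 2 genes, tests were kept for differences inside a stage of the time course, for the serum mice among themselves and for the deviations of single mice from their time point.

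Fkbp5 encodes FKBP51, a co-chaperone of the HSP90 complex that lowers the affinity of the glucocorticoid receptor for its hormone. Its gene is a well known target of that receptor, so that it serves as a feedback brake on the hormone. Map3k6, also named Ask2, encodes a kinase at the top of a MAP kinase cascade that signals stress to JNK and p38, and it works in a complex with the related kinase ASK1. Both genes have been found among those that glucocorticoids induce.

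All animals were female C57Bl/6J mice of 7 weeks, anaesthetized with xylazine and ketamine and injected in the tail vein. Oleic acid was given to 27 mice, of which 4 were taken after 1 hour, 6 after 1.5 hours and 7 after 3 hours. A further 4 were taken after 4 hours, and 3 each after 18 and 24 hours. The 8 controls received physiological serum. Their arrays were counted as 2 mice each after 1, 3 and 18 hours, and 1 mouse each after 1.5 and 24 hours. The 2 arrays at 1.5 hours were counted as 1 mouse, and as 2 mice in an alternative. The paper describes 1 or 2 serum mice in each time group, but no serum array was labelled 4 hours. No untreated mouse was included, so every lung came from an anaesthetized and injected animal. The early stage joins 1 and 1.5 hours, the intermediate stage 3 and 4 hours and the late stage 18 and 24 hours. Each mouse code of the labels ends in L1, L2 or L3, called the lot here although the meaning of L is not given. Lot L1 held all late mice and 3 of the intermediate ones, and lots L2 and L3 held all early mice and the other intermediate ones.

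The brightness of single arrays differed, and with it the reliability of dim spots. Of the 50 OA microarrays used, the correlation with the other arrays had its lowest median, 0.867, for the only array of mouse P7L2 at 1.5 hours. All 9 serum arrays lay below 0.88 on that measure. Each array was compared with all others, mostly OA arrays, so a difference between OA and serum lungs would also lower the serum values. The serum array PS3h_1, 1 of the 2 at 3 hours, stood lowest at 0.822 and was the dimmest of all, with 17.5% of its clones brighter than the 95th percentile of its empty spots. The surfactant protein gene Sftpd, a marker of alveolar type II cells, was among the bright clones of the OA arrays, with a mean deposited level of 13.52 (log2).

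Fkbp5 lies on the minus strand of chromosome 17 (GRCm38.p6, chr17:28398753-28486149) and Map3k6 on the plus strand of chromosome 4 (chr4:133237979-133252929). The RefSeq window of 250 bases before the start of Fkbp5 (chr17:28486150-28486399, minus strand) is shown because the gene is a textbook target of the glucocorticoid receptor, with matches to 3 motifs on either strand in capitals. The motifs are the E-box, spelled CACGTG, the CCAAT box, and the GC box, spelled GGGCGG, and the second CCAAT match is on the other strand, directly after the last GC box.
Fkbp5: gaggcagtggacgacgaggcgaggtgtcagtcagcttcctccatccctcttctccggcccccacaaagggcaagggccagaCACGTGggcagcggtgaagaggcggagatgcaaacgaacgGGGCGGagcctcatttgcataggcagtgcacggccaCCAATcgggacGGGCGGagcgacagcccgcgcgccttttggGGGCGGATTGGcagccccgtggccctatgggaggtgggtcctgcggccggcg
This window held 1 E-box, 2 CCAAT boxes and 3 GC boxes, which were present in 6.02%, 33.8% and 32.7% of the 32851 promoter windows of that length. The Map3k6 window (chr4:133240568-133240817) lies inside the gene span, so its letters are not shown, and it held none of these 3 motifs. The hexamer TGTTCT, the core of a glucocorticoid response element, was searched on both strands and was found in neither window, against 16.1% of all windows. The pentamer TGACG, part of the cAMP response element, and TATAAA were likewise found in neither window, against 17.8% and 12.4%. Sites outside these windows of 250 bases were not searched, and the Map3k6 window does not lie before its gene span. Control of either gene by the glucocorticoid receptor was not tested.

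In OA mice both genes were low at 1 hour, high at 3 and 4 hours and low again at 18 hours. All levels in this paragraph and the next are deposited log2 values averaged per mouse. For Fkbp5 the mice at 1 hour had 7.38, 7.42, 7.54 and 7.68, a mean of 7.51 ± 0.14 (SD, n = 4). At 1.5 hours the lowest was 7.64, the median 8.28 and the highest 8.48 (mean 8.18 ± 0.32, SD, n = 6). At 3 hours the lowest was 8.72, the median 9.02 and the highest 10.26 (mean 9.39 ± 0.70, SD, n = 7). The groups at 1 and 1.5 hours overlapped only by mouse P1L3, and every mouse at 3 hours lay above every mouse at 1.5 hours. At 4 hours the 4 mice had 8.98, 9.63, 9.96 and 10.02 (mean 9.65 ± 0.48, SD). At 18 hours the 3 mice had 7.63, 7.67 and 8.01 (mean 7.77 ± 0.21, SD), and at 24 hours 7.58, 8.03 and 8.59 (mean 8.07 ± 0.51, SD). The order of the Fkbp5 means was thus 4, 3, 1.5, 24, 18 and 1 hour, and the only neighbours in it whose mice did not overlap were 3 and 1.5 hours.

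For Map3k6 the mice at 1 hour had 6.93, 7.05, 7.75 and 8.15 (mean 7.47 ± 0.58, SD, n = 4). At 1.5 hours the lowest was 7.94, the median 8.51 and the highest 8.90 (mean 8.49 ± 0.32, SD, n = 6). At 3 hours the 7 mice lay closely together, with a lowest level of 9.33, a median of 9.53 and a highest of 9.67 (mean 9.50 ± 0.12, SD). At 4 hours the levels were 9.37, 9.47, 9.98 and 10.07 (mean 9.72 ± 0.35, SD, n = 4). At 18 hours they were 7.42, 7.44 and 7.69 (mean 7.52 ± 0.15, SD, n = 3), and at 24 hours 7.54, 8.49 and 8.53 (mean 8.18 ± 0.56, SD, n = 3). The order of the Map3k6 means was the same as that of Fkbp5, and again only 3 and 1.5 hours were neighbours without overlap. At 24 hours 2 of the 3 Map3k6 mice stood above all mice of 18 hours, and mouse P6L1 stood among them.

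**Figure D1:**
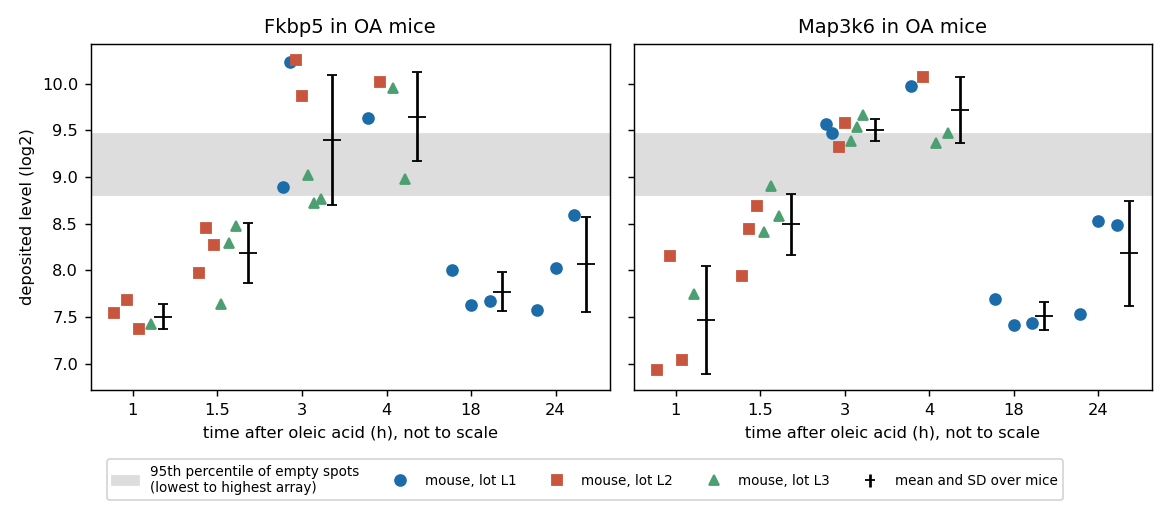
Deposited log2 level of Fkbp5 and Map3k6 in each of the 27 OA mice by time after oleic acid, with symbols for the 3 lots, black marks for the mean and SD over mice, and a grey band for the 95th percentile of the empty spots over the OA arrays. The mice at 3 and 4 hours stand above all others for both genes, and at 3 hours Fkbp5 spreads from 8.72 to 10.26 while Map3k6 stays between 9.33 and 9.67.

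The difference that selected the genes, the intermediate stage minus the mean of the early and late stages, was 1.57 (log2, SE 0.19) for Fkbp5 and 1.62 (SE 0.19) for Map3k6. By size these ranked 3 and 2 among all clones, behind Mt1 at 1.65, and Cdkn1a followed at 1.54. In the limma fit of that difference 244 of the 7625 clones (3.2%) were called at an adjusted p under 0.05, 124 of them (1.63%) with higher levels at 3 and 4 hours. Taken as ratios of geometric means, the intermediate level of Fkbp5 was 2.97 times the early and 2.96 times the late level. That of Map3k6 was 2.83 and 3.32 times its own early and late levels. These folds depend on levels near the background of the membrane. No OA array of the early or late stage showed Fkbp5 above the 95th percentile of its empty spots, against 9 of 13 arrays at 3 hours and 7 of 8 at the later intermediate time. Map3k6 passed that mark on 12 of 13 and 8 of 8 arrays of these 2 time points, on 2 of 10 arrays at 1.5 hours and on none at the other times. With each dim spot of the early and late stages held at that percentile of its array (deposited scale) and the intermediate mean as measured, Fkbp5 was at least 1.29-fold higher at the intermediate than at the early stage and at least 1.40-fold higher than at the late stage. For Map3k6 the same bounds were at least 1.37-fold and at least 1.5-fold, the first with 2 early arrays measured above the mark. Of the 21 intermediate arrays, 5 for Fkbp5 and 1 for Map3k6 were not above the mark.

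No lot held both the rise and the fall of the pulse, and in each lot the intermediate mice were higher than those of the other stage. In lot L1 the 3 intermediate mice exceeded the 6 late mice by 1.67 for Fkbp5 and 1.82 for Map3k6 (log2 of deposited levels). In lot L2 the 3 intermediate mice exceeded the 6 early mice by 2.17 and 1.79. In lot L3 the 5 intermediate mice exceeded the 4 early mice by 1.13 and 1.07, the smallest differences of the 3 lots for both genes. In none of these 6 comparisons did the mice of the 2 stages overlap. The same mice selected the genes, and the share of all clones without overlap is not given here, nor for the time points above. With lot as a block in the fit the stage differences were 1.64 for Fkbp5 and 1.62 for Map3k6. Early and late mice shared no lot, so that lot and stage cannot be told apart for a direct comparison of these 2 stages.

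At 3 hours the 2 genes differed in how the mice were spread. Fkbp5 was near 10 in mice P15L2 (10.26), P3L1 (10.23) and P16L2 (9.87), and near 9 in mice P7L3 (9.02), P2L1 (8.89), P9L3 (8.77) and P8L3 (8.72). Single arrays did not overlap between these mice either, since the lowest array of the first 3 read 9.68 and the highest of the other 4 read 9.12. The 3 mice of lot L3 all lay in the lower set, both mice of lot L2 in the upper set, and lot L1 had a mouse in each. The lower set lay near the background, since the 95th percentile of the empty spots was 8.82 to 9.24 on its arrays. Every 3 hour array on which Fkbp5 did not pass that mark came from a mouse of the lower set. Over the 23 OA mice with 2 arrays, the SD between arrays of 1 mouse was 0.19 for Fkbp5 and 0.26 for Map3k6. The SD between mice of a time point was 0.48 for Fkbp5 and 0.36 for Map3k6. The largest gap between arrays of a mouse was 0.96, for Map3k6 in mouse P8L2.

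Inside the stages, where the choice of the genes played no part, the changes were smaller. From 1 to 1.5 hours Map3k6 differed by 1.03 (log2, SE 0.22), with the lowest p of all 7625 clones (unadjusted limma p = 8.67e-05) but an adjusted p of 0.661. Without mouse P3L2, the highest at 1 hour, the difference was 1.25 with an adjusted limma p of 0.0457. Of the 27 fits with 1 mouse left out, this one had the largest difference and the lowest adjusted p. Map3k6 passed the 95th percentile of the empty spots on 0 of 8 arrays at 1 hour and 2 of 10 at 1.5 hours, so both levels lay near the background. Fkbp5 differed by 0.68 (SE 0.29) between the same time points, with an adjusted p of 1.00. From 3 to 4 hours the differences were 0.25 (SE 0.28) for Fkbp5 and 0.22 (SE 0.21) for Map3k6, both with an adjusted limma p of 0.999. From 18 to 24 hours Fkbp5 differed by 0.30 (SE 0.36, adjusted p = 0.949) and Map3k6 by 0.67 (SE 0.28, adjusted p = 0.633). Over all clones limma called 0 (0.0%), 0 (0.0%) and 2 (0.0262%) of 7625 in these 3 contrasts, where 292, 263 and 553 had an unadjusted p under 0.05.

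Serum mice were compared on quantile-normalized scanner intensities, since the deposited table holds single serum columns per time point. On that log2 scale the 2 serum mice at 3 hours read 8.72 (PS3h_1) and 7.57 (PS3h_2) for Fkbp5. The other 6 serum mice lay between 7.45 and 8.16. For Map3k6 the 2 serum mice at 3 hours read 9.40 and 8.06, and the other 6 lay between 7.68 and 9.06, the highest of them PS1h_1 at 1 hour. In serum mice the level at 3 hours minus the mean of the other 4 time points was 0.43 (SE 0.37, adjusted limma p = 0.795) for Fkbp5 and 0.71 (SE 0.34, adjusted limma p = 0.453) for Map3k6, in a contrast that called 18 of 7625 clones (0.236%). Each value depended on which of the 2 mice was kept. Without PS3h_1 the differences were -0.15 for Fkbp5 and 0.04 for Map3k6. Without PS3h_2 they were 1.00 and 1.38. Both are given without a test, since a single serum mouse is then left at 3 hours.

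The mouse with the higher levels was the one on the dimmest array. Before normalization the spots of PS3h_1 had an intensity of 79 for Fkbp5 and 131 for Map3k6, below the 215 and 316 of PS3h_2. Neither spot was above the 95th percentile of the empty spots on its array, which was 9.71 after normalization on PS3h_1 and 8.88 on PS3h_2. Fkbp5 passed that percentile on none of the 9 serum arrays, and Map3k6 on 1, that of PS1h_1. The part of array brightness in these serum levels was not tested. The authors' own serum column was highest at 3 hours for both genes, with 9.01 for Fkbp5 and 8.83 for Map3k6 (log2). In order of time its other values were 7.87, 7.40, 8.25 and 8.27 for Fkbp5. For Map3k6 they were 8.12, 7.44, 7.56 and 5.98. The deposited Map3k6 mean of OA mice stood further above this column at 24 hours (8.18) than at 3 hours (9.50). That of Fkbp5 stood further above it at 1.5 hours (8.18) than at 3 hours (9.39). The arrays behind each serum column are not stated in the sources used here.

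**Figure D2:**
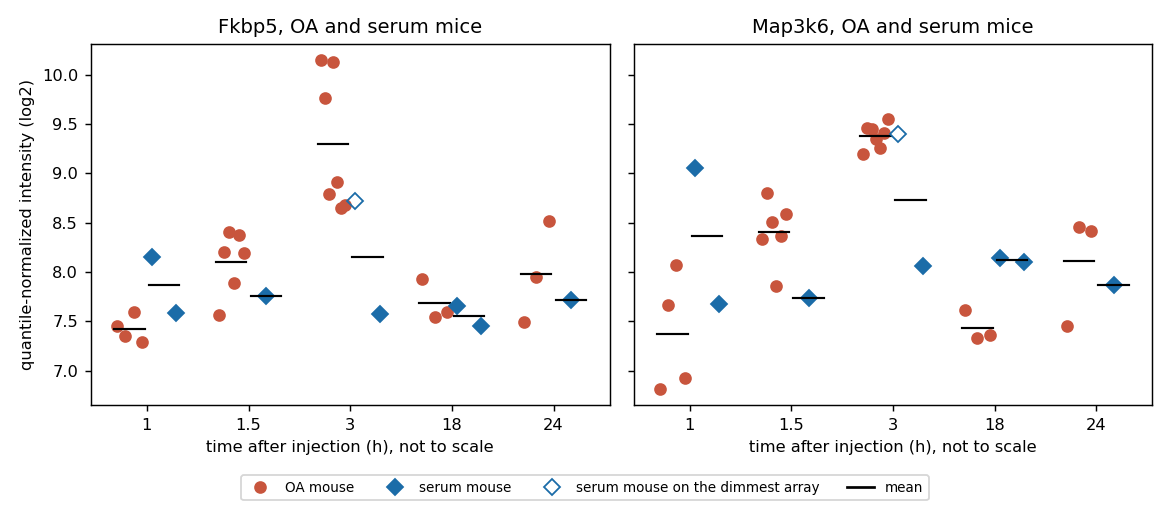
Quantile-normalized log2 intensity of Fkbp5 and Map3k6 in each OA mouse (circles) and serum mouse (diamonds) at the 5 time points with both, with the mean as a line and an open diamond for the serum mouse on the dimmest array. At 3 hours the OA mice lie between 8.65 and 10.15 for Fkbp5 and between 9.20 and 9.55 for Map3k6, and the 2 serum mice lie apart from each other.

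The comparison of OA with serum mice uses the OA levels that selected the genes, so its values are given without a test. In order of time limma called 30.0%, 14.1%, 40.1%, 29.2% and 22.3% of all clones in the 5 contrasts, so a call between OA and serum arrays was common. At 3 hours OA minus serum was 1.15 (log2, SE 0.36) for Fkbp5 and 0.65 (SE 0.33) for Map3k6. Without PS3h_1 these became 1.72 and 1.32, and without PS3h_2 they became 0.57 and -0.02. At 1 hour the difference was -1.0 (SE 0.36) for Map3k6 and -0.45 (SE 0.39) for Fkbp5. That of Map3k6 was -0.31 without serum mouse PS1h_1 and -1.69 without PS1h_2.

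For Fkbp5 OA minus serum was 0.35, 0.14 and 0.27 at the time points 1.5, 18 and 24 hours (SE 0.49, 0.41 and 0.52). For Map3k6 it was 0.67, -0.69 and 0.24 (SE 0.45, 0.38 and 0.48). The serum arm was 1 mouse at 1.5 and at 24 hours, assumed by the fit to vary like the other groups. The rise at 3 hours against the other 4 shared time points was 1.5 (SE 0.21) for Fkbp5 and 1.55 (SE 0.19) for Map3k6 in OA mice. It exceeded that of serum mice by 1.07 (SE 0.43) and 0.85 (SE 0.39), given here without a test. Without PS3h_1 the excess was 1.65 and 1.52, and without PS3h_2 it was 0.50 and 0.17.

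The levels of the 2 genes moved together over the time course, which their selection on a shared pattern fixes (Pearson r = 0.86 over 27 OA mice). What the selection did not fix is whether a mouse above its time point mean for one gene was also above it for the other. After subtraction of the time point means Pearson r was 0.23 (permutation within time points, two-sided p = 0.179) and Spearman rho 0.31 (permutation p = 0.102). Without the 2 mice farthest from the median Fkbp5 deviation, P15L2 and P3L1, r was 0.40 (permutation p = 0.0584). Within the stages r was 0.39 for the 10 early mice (permutation p = 0.187), -0.05 for the 11 intermediate mice (permutation p = 0.876) and 0.82 for the 6 late mice (permutation p = 0.279). After subtraction of the mean of each time point and lot r was 0.32 (permutation p = 0.113). For Fkbp5, 13.8% of the other clones had a correlation of deviations with it at least as high as Map3k6.

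Over the 8 serum mice, Pearson r of the 2 genes was 0.89 (exact permutation p = 0.0151) and Spearman rho 0.43 (exact permutation p = 0.299). Without the 2 mice farthest from the median of Fkbp5, PS1h_1 and PS3h_1, r was -0.47 (exact permutation p = 0.339), so the relation rested on those 2. Of the 5 correlations computed in OA and serum mice, none passed Benjamini-Hochberg adjustment (lowest adjusted permutation p = 0.0753).

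**Figure D3:**
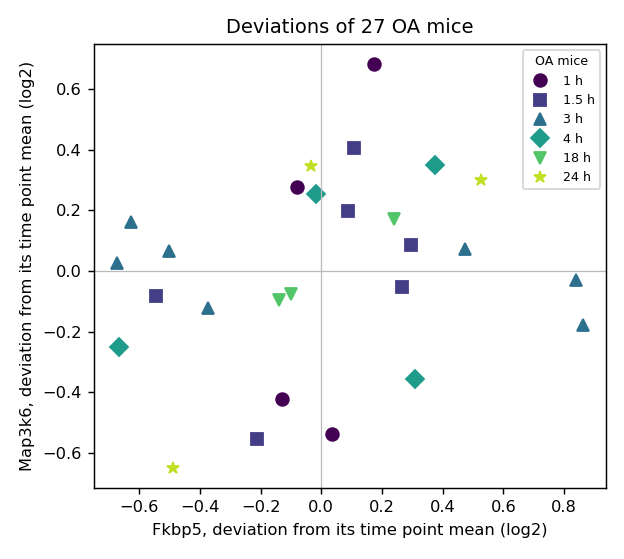
Deviation of each of the 27 OA mice from the mean of its time point (log2, deposited levels), Fkbp5 on the horizontal and Map3k6 on the vertical axis, with symbols for the 6 time points. The 7 mice at 3 hours form a flat band, wide in Fkbp5 and narrow in Map3k6, and the points as a whole show a Pearson r of 0.23.

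By Pearson r over the 27 OA mice, which share the time points that selected the genes, the clone most like Fkbp5 was Angptl4 (r = 0.91), which encodes a secreted inhibitor of lipoprotein lipase. It was followed by Map3k6 (0.86), the kinase gene Map3k11 (0.84), the adaptor gene Bcar3 (0.83) and Plat, the tissue plasminogen activator (0.83). The clone most like Map3k6 was Sphk1 (r = 0.93), whose enzyme makes sphingosine 1-phosphate. Then came the metallothionein gene Mt1 (0.90), Map3k11 (0.89), Spsb1 (0.87), whose protein directs others to ubiquitin ligases, and Mt2 (0.87).

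The deviations of single mice were also read for the nearest clones. The correlation of deviations from the time point means was 0.74 between Fkbp5 and Angptl4, and 0.60 between Map3k6 and Sphk1, against 0.23 between Fkbp5 and Map3k6 (descriptions over 27 mice). Angptl4 and Sphk1 were picked by the highest r over the same mice, and that r includes these deviations. Their 0.74 and 0.60 are thus partly fixed by that choice and not on a par with 0.23. At 3 hours the Angptl4 level was highest in P3L1 (10.49) and P15L2 (10.11), 2 of the 3 mice with high Fkbp5. The third, P16L2, read 9.87 for Angptl4, as did P8L3, the lowest of the 7 for Fkbp5. At 4 hours mouse P13L3 was the lowest for both Fkbp5 (8.98) and Angptl4 (9.67). Sphk1 at 3 hours was lowest in P15L2 (8.01), the mouse with the highest Fkbp5 and the lowest Map3k6.

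**Figure D4:**
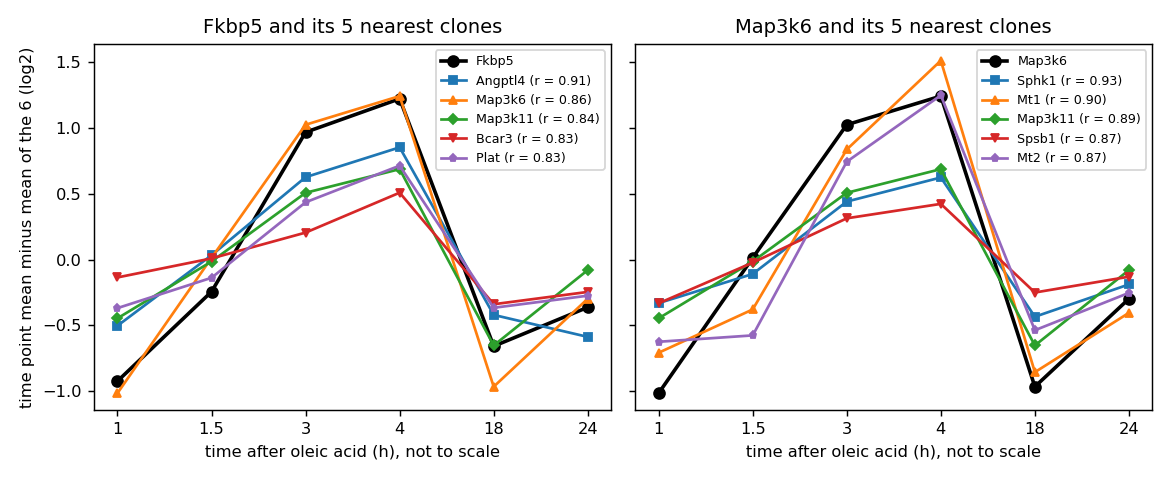
Mean deposited log2 level at each time point minus the mean of the 6 time points, for Fkbp5 (left) and Map3k6 (right) in black and for the 5 clones with the highest Pearson r over the 27 OA mice in colour. All lines are highest at 4 hours and next highest at 3 hours.

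The pathways around the 2 genes were read in the same stage difference, 3 and 4 hours minus the mean of the early and late stages, with both genes left out of the counts. The lists were chosen with earlier results of these data known, and each count stands beside the 3.2% of all clones called (1.63% higher). Of 29 clones for 24 genes of the glucocorticoid response list, 12 clones of 10 genes were called higher, where 1.63% of all clones were, and 0 lower, with a median difference of 0.42 against 0.00 over all clones. The largest were Mt1 (1.65, adjusted limma p = 2.44e-07), the cell cycle inhibitor gene Cdkn1a (1.54, adjusted limma p = 9.75e-06) and the 2 clones of Mt2, which like Mt1 binds zinc (1.43 and 1.42). A second Mt1 clone (1.21) and Angptl4 (1.05) followed. Many of these genes also answer to other signals, such as metals for the metallothioneins and fatty acids for Angptl4. Among classic targets of the receptor on the list, named after their values were seen, Klf9 differed by 0.68 (adjusted limma p = 0.000347) and Sgk, a kinase gene that promotes sodium uptake, by 0.71 (adjusted limma p = 0.00251). Dusp1 at 0.09 (adjusted limma p = 0.881) and Zbtb16 at 0.07 (adjusted limma p = 0.959) were not called.

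Of 30 clones for 19 genes of the FKBP family and the HSP90 chaperones, limma called 0, where 3.2% of all clones were called, so the count was near the background. The list had 5 clones at an unadjusted p under 0.05 and a median difference of -0.09. Fkbp4, which encodes FKBP52, the closest relative of FKBP51 and its opponent on steroid receptors, had differences of -0.22, -0.15 and -0.08 on its 3 clones (adjusted limma p = 0.0983, 0.441 and 0.621). With lot as a block 1 clone of this list was called lower, Fkbp2 (adjusted limma p = 0.0346). The receptor gene Nr3c1 was not analysed here.

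In the MAP kinase cascade 3 of 34 clones for 24 genes were called, all higher, where 1.63% of all clones were, with a median difference of 0.01. They were Map3k11 (0.85, adjusted limma p = 0.000221), which encodes a mixed lineage kinase upstream of JNK, and both clones of Map2k3 (0.46, adjusted limma p = 0.00329, and 0.41, adjusted limma p = 0.00374), which encodes a kinase that activates p38. Map3k5, which encodes ASK1, was not analysed here.

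**Figure D5:**
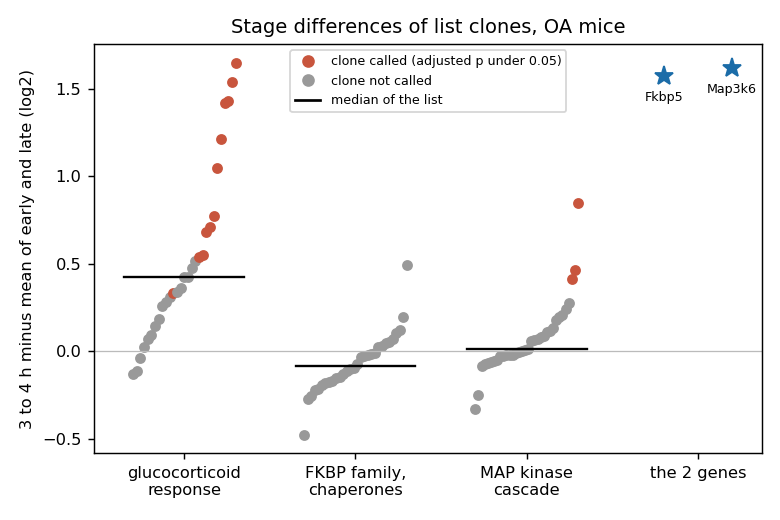
Difference of 3 and 4 hours from the mean of the early and late stages (log2, deposited levels) for each clone of the 3 gene lists, called clones in red, others in grey and the list median as a line, beside Fkbp5 and Map3k6 as stars. In the glucocorticoid list 12 of 29 clones are called, all higher, against 0 of 30 FKBP and chaperone clones and 3 of 34 MAP kinase cascade clones.

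Markers of other cell types were read beside the pulse, since in whole lung a change in cell number and a change in RNA per cell cannot be told apart. In the same stage difference 0 of 3 alveolar type II clones, 0 of 6 endothelial, 0 of 5 neutrophil, 0 of 3 macrophage, 0 of 7 T cell, 0 of 13 red cell and 0 of 2 fat clones were called. Over all clones 3.2% were called, so these counts of few clones were near the background and do not show that cell numbers were steady. The stage difference was below 0 in 5 of 6 B cell clones. Of these 6 clones for Cd79b, a part of the B cell receptor, and Igh-6, an immunoglobulin heavy chain, 1 was called, a Cd79b clone at -0.55 (adjusted limma p = 0.0142), and the median was -0.34. The other Cd79b clone had -0.44 and the 4 Igh-6 clones -0.84, -0.23, -0.22 and 0.38. Their summed level ranged from 11.58 to 13.44 at the early stage (median 12.26), from 11.01 to 12.51 at the intermediate stage (median 11.51) and from 11.68 to 12.14 at the late stage (median 11.90), so its median was lowest where the 2 genes were highest. The summed level of the neutrophil list ranged from 12.44 to 15.20 at the early stage, from 12.09 to 14.26 at the intermediate stage and from 11.64 to 12.92 at the late stage (log2). Its medians were 13.07, 13.39 and 12.24 in that order, so its median was highest where the 2 genes were highest. This sum rests mostly on its brightest clones, S100a9 and S100a8, with stage differences of 0.80 and 0.68. Camp, Ltf and Itgam differed by 0.10, -0.03 and 0.01. The summed alveolar type II list also had its highest median at the intermediate stage, with medians of 14.20, 14.32 and 14.13 in order of stage. The part of cell composition in the 2 genes' pulse was not tested.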

How the data were processed

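Lung RNA of 27 OA and 8 serum mice was hybridized on nylon microarrays of 9984 spots, 1 labelled sample on each. The members and the gene lists were chosen with earlier results of these data known. The authors deposited linear spot intensities, quantified with Bzscan2, for 60 arrays. They also deposited a table of log2 values that they had quantile-normalized. A quality score of 0 or 1 per spot, deposited with the intensities, has no stated rule and was not used. The methods describe a correction for neighbouring spots and local background, and do not say whether these intensities already hold it. OA time courses used the deposited log2 values. Comparisons with serum used the intensities with a floor of 1, log2 transformed and quantile-normalized over 60 arrays. Arrays of a mouse were averaged. Groups and time points come from the labels, where the treatment text of the serum samples repeats the OA text and their source names say serum. Nothing pairs mice, and p-values measure the spread between mice. Array 5 of mouse P7L3, labelled both 3 and 1.5 hours, was taken as 3 hours, and array 81, whose mouse is unresolved, was left out.

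Fits used limma 3.58.1 in R 4.3.3 with Benjamini-Hochberg adjustment over 7625 named clones. The serum fit had 24 residual degrees of freedom shared by OA and serum mice. Within-time-point correlations used 100000 permutations in numpy 2.4.6, and exact permutations were enumerated for serum mice. The fit and the permutation test were tested on simulated data. The number of arrays limits the precision of each value, and empty spots (1647) gave the background. Named genes were the 2 members, up to 6 called clones of each list by size, Map3k5, Nr3c1 and Fkbp4, and the 5 clones most like each member. Promoter windows came from RefSeq, where both genes matched by symbol. Alternatives covered the values, the lot, filters, the doubtful arrays, serum subtraction and each mouse left out. The difference of the 3 hour rise between OA and serum mice and the shortened B cell list were added after the data were seen. One B cell marker is not reported here, so the B cell values cover its other genes and are not those of the whole list.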

Additional observations from a re-analysis of the deposited data

How the results depend on the processing

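The stage differences stayed between 1.49 and 1.65 for Fkbp5 and between 1.55 and 1.68 for Map3k6 when each OA mouse was left out. Subtracting the serum mean of the time point, with the 3 hour mean used at 4 hours, gave 1.12 and 0.84. The stage contrast called 244 clones, and 83 with the fitted signal, 2115 with serum means subtracted, 125 of the 2817 bright clones and 194 to 280 without each mouse. Serum means subtracted also gave calls for Map3k6 at 1.5 minus 1 hour (1.67, adjusted limma p = 2.54e-05) and at 24 minus 18 hours (0.93, adjusted limma p = 0.0282). That subtraction adds the spread of 1 or 2 serum mice to every OA mouse without entering it in the test. With the fitted signal OA minus serum was 0.94 for Fkbp5 at 3 hours, and -0.90 at 1 hour and -1.47 at 18 hours for Map3k6. Map3k6 at 24 minus 18 hours was then 1.27. At 18 hours fitted Map3k6 was 5.04 in P12L1 (deposited 7.44), and 7.37 and 7.57 in the others. The correlation within time points stayed at 0.23 (permutation p = 0.0321, deposited 0.179). The causes were not tested.

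Leaving out 1 mouse at a time, OA minus serum ranged at 3 hours from 0.57 to 1.72 for Fkbp5 and from -0.020 to 1.32 for Map3k6, and at 1 hour from -1.69 to -0.31 for Map3k6. Serum at 3 hours minus the other times ranged from -0.15 to 1.00 and from 0.035 to 1.38, and called 6 to 855 clones. The excess of the OA rise over the serum rise ranged from 0.50 to 1.65 and from 0.17 to 1.52. Map3k6 at 1.5 minus 1 hour ranged from 0.85 to 1.25. Several small differences, none called in any left-out-mouse fit, also moved over 1.5 times. Fkbp5 and Map3k6 ranged from 0.13 to 0.48 and from 0.10 to 0.34 at 4 minus 3 hours, and Fkbp5 from 0.033 to 0.54 at 24 minus 18 hours. Fkbp5 OA minus serum ranged from -0.74 to -0.17 at 1 hour, from 0.016 to 0.24 at 18 hours and from 0.0012 to 0.52 at 24 hours, where Map3k6 ranged from 0.067 to 0.57. The correlation within time points ranged from 0.12 to 0.31. The correlation over serum mice was -0.47 without the 2 mice farthest from the median, an alternative added after the data were seen. With lot as a block 1 FKBP or chaperone clone was called. The filter on bright clones removed both genes and gave them no value. No paired analysis was possible because the mouse codes of the labels do not pair mice between groups. Counts of called clones moved over 1.5 times elsewhere too. With serum means subtracted they were 1282 at 1.5 minus 1 hour and 1035 at 24 minus 18 hours, where the lot block gave 7. OA minus serum at 1.5 hours gave 598 with the fitted signal and 2246 with the serum arrays as 2 mice, and at 18 hours the fitted signal gave 1451. Serum at 3 hours minus the other times gave 224 with the fitted signal and 2 with median-centred intensities. Bright clones only, fewer of which were tested, gave 763, 346, 1028, 681 and 598 for OA minus serum in order of time and 4 for the serum contrast. The tally that follows includes calls of OA minus serum for the 2 genes, whose OA levels selected them, and fits that leave 1 serum mouse at a time point. Calls kept, lost or gained there are not read as tests. Over all values and counts, 1048 left-out-mouse results and 224 others kept direction and call or stayed within the spread. A further 32 and 26 moved, 4 and 2 lost a call, 3 and 3 gained one, and 2 and 1 reversed.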
